A study of Mus musculus with 8 samples.

Results

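The genes described are Trp53, which encodes p53, Mdm2, which encodes the ubiquitin ligase that removes p53, and 8 genes known as direct transcriptional targets of p53: Cdkn1a, Ccng1, Sesn1, Zmat3, Fas, Tnfrsf10b, Perp and Phlda3. They were taken from the expression files by their Entrez gene IDs and are 10 of the 18631 genes listed in each library. All 10 passed the filter on low values, with a lowest single value of 5.70 FPKM (read fragments per length of transcript and per depth of the library), for Fas. Poly(A) RNA was measured in 2 mouse kidney epithelial lines, 1 line per genotype. The line called null(PN) is Pkd1-/- and the line called pkd1(PH) is heterozygous, Pkd1+/-. Pkd1 encodes polycystin-1, the protein most often affected in autosomal dominant polycystic kidney disease. The 4 groups, of 2 libraries each, were null cells with 50 nM THZ1 for 6 h, null cells with DMSO, heterozygous cells with 50 nM THZ1 for 6 h, and heterozygous cells with DMSO. THZ1 is a covalent inhibitor of CDK7, a kinase of the transcription initiation machinery, and DMSO is its solvent. Both lines grew in the same medium, which contained interferon gamma, and how the lines were immortalised is not stated in the labels. The labels do not say that the replicates were separate cultures, so the spread behind each p-value is that between libraries and may be technical only. With 1 line per genotype, loss of Pkd1 and any other difference between the lines cannot be told apart.

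p53 is a transcription factor that responds to DNA damage and other stress. It is held low mainly at the protein level by Mdm2, and Mdm2 is itself one of its target genes, which closes a negative feedback loop. Its target genes stop the cell cycle, promote cell death or support repair and metabolism, and different stresses engage different subsets of them. In kidney tubules the pathway is best known from acute injury, in which Cdkn1a is induced. Because p53 is regulated as a protein, the RNA of Trp53 is not a measure of its activity, and no protein was measured here.

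Each library gave values above 0 for 14007 to 15439 genes, and the steps between low values put the depth at about 17350000 to 18250000 fragments. Replicates correlated at r = 0.9973 to 0.9983 across genes, which are not independent replicates. The null DMSO replicate 1 and null THZ1 replicate 2 libraries held 3378 and 3129 genes between 0.01 and 0.2 FPKM, against 2230 to 2586 in the other 6. Pkd1 was listed at 1.22 and 1.21 FPKM in null THZ1 libraries, 1.69 and 1.32 in null DMSO, 3.71 and 4.2 in heterozygous THZ1, and 4.58 and 5.30 in heterozygous DMSO. It was therefore lower in every null library than in every heterozygous one. Of 14 kidney tubule markers, 7 had a mean of at least 1 FPKM in each group, among them Pax8, Pax2, Cdh16, Krt8 and Krt18, while the epithelial genes Cdh1 and Epcam were near 0. The 7 were not the same genes in both lines. Umod passed only in heterozygous cells, at 2.215 FPKM under DMSO and 1.71 under THZ1, and was 0 in all null libraries. Lrp2 passed only in null cells, at 4.795 FPKM under DMSO and 4.96 under THZ1, against 0.48 in both heterozygous groups. The summed tubule markers ran from 759.19 to 768.53 FPKM in null THZ1, 798.41 to 805.89 in null DMSO, 1046.33 to 1078.73 in heterozygous THZ1 and 1015.18 to 1097.4 in heterozygous DMSO libraries. The tubule markers did not move together: under DMSO, 2 were higher and 5 lower in null cells at an unadjusted limma p below 0.05. Krt8 had a mean of 184.9 FPKM in null DMSO against 325.9 in heterozygous DMSO cells, while Cdh16 had 264.0 against 182.1. The summed fibroblast markers (2 of 8 at 1 FPKM or more, Postn and Col1a1) ran from 39.88 to 43.04 FPKM in null THZ1, 33.7 to 33.72 in null DMSO, 15.34 to 15.42 in heterozygous THZ1 and 15.52 to 16.64 in heterozygous DMSO libraries. The 6 endothelial markers summed to at most 0.23 FPKM, and of the 6 leukocyte markers only Cd68 reached 1 FPKM. The part of these marker differences in the differences between lines below was not tested, and fewer cells of a type and less RNA per cell cannot be told apart in bulk RNA.

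p53 binds a 20-base site made of 2 decamers. A decamer has a core of C and G around A or T bases, with purines on one side and pyrimidines on the other, so it reads alike on both strands. RefSeq promoter windows of assembly GRCm38.p6, which corresponds to mm10, cover 250 bases before and 50 after a gene's start, and 7 of the 10 genes had such a window. The remaining 3 were Perp, Zmat3 and Tnfrsf10b. The 250 bases before the start are shown for Cdkn1a and Ccng1, whose windows hold a p53 site, and for Mdm2 and Phlda3. Mdm2 is the feedback gene, and its window holds a decamer. The Phlda3 window holds neither, and Phlda3 fell most of the 10 genes under THZ1 in null cells. Capitals mark the 20-base site in Cdkn1a and Ccng1 and the decamer in Mdm2, and each sequence runs 5′ to 3′ on the gene's strand. Another decamer of the Cdkn1a window, which lies before its site, is left in lower case. The positions are chr17:29090729-29090978 on the plus strand for Cdkn1a, chr11:40755287-40755536 on the minus strand for Ccng1, chr10:117710759-117711008 on the minus strand for Mdm2 and chr1:135765835-135766084 on the plus strand for Phlda3.
Cdkn1a: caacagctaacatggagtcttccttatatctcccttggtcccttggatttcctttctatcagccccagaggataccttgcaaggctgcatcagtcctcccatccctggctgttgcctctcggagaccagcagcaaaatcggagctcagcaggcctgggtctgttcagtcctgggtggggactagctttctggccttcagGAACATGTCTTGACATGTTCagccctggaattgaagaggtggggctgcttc
Ccng1: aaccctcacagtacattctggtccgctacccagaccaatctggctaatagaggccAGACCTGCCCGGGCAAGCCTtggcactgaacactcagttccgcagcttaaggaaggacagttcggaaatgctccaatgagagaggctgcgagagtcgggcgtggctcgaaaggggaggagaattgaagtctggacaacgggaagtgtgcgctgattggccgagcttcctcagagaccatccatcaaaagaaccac
Mdm2: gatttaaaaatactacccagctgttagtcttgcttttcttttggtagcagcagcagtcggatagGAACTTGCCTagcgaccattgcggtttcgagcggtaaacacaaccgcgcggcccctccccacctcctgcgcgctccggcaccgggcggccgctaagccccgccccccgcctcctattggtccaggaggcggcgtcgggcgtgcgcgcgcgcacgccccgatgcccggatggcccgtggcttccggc
Phlda3: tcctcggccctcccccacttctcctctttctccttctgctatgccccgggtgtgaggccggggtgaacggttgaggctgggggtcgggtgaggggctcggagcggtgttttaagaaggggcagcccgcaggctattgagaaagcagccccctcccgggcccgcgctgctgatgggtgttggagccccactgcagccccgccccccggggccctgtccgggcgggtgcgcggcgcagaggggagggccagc
The Cdkn1a window, which belongs to its upstream start, holds a pair of adjacent decamers at bases -51 to -32 from the start, with 1 mismatch to the 20-base site. The Ccng1 window holds such a pair at bases -195 to -176, also with 1 mismatch. Such a site, searched without a spacer on both strands, is in 29 of the 32851 windows of the mouse table, or 0.09%. This adjacent form was chosen after the sequences were seen. The Mdm2 window holds a single decamer that starts at base -186. Trp53 and the downstream start of Sesn1 also have a decamer. In all, one is in 5 of the 9 windows of these genes and in 2745 of all windows, or 8.36%. A match is only a description of the letters in the window, and binding was not measured.

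Among the 10 genes, levels per length of transcript spanned about 2 orders of magnitude. Cdkn1a, which encodes the cyclin-dependent kinase inhibitor p21, had the highest level in every group, at 512.5 ± 13.6 FPKM in null THZ1, 382 ± 5.64 in null DMSO, 308 ± 1.59 in heterozygous THZ1 and 269 ± 12.7 in heterozygous DMSO cells (SD, n = 2 each). Ccng1, which encodes cyclin G1, came next in every group. The lowest level belonged to Sesn1 in null cells, at 8.61 ± 0.495 FPKM under THZ1 and 7.34 ± 0.127 under DMSO. In heterozygous cells it belonged to Fas, at 7.79 ± 0.0778 FPKM under THZ1 and 6.12 ± 0.587 under DMSO. Neighbours in the order of levels were separate in their replicates except for Fas and Tnfrsf10b in null THZ1 cells and Zmat3 and Tnfrsf10b in heterozygous THZ1 cells. For Mdm2, Cdkn1a, Fas, Perp and Zmat3, 5 of the 10 genes, the group means ran in one order, from null THZ1 as the highest through null DMSO and heterozygous THZ1 to heterozygous DMSO. That order was found in 9.6% of the 10731 genes with a mean of at least 1 FPKM.

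**Figure D1:**
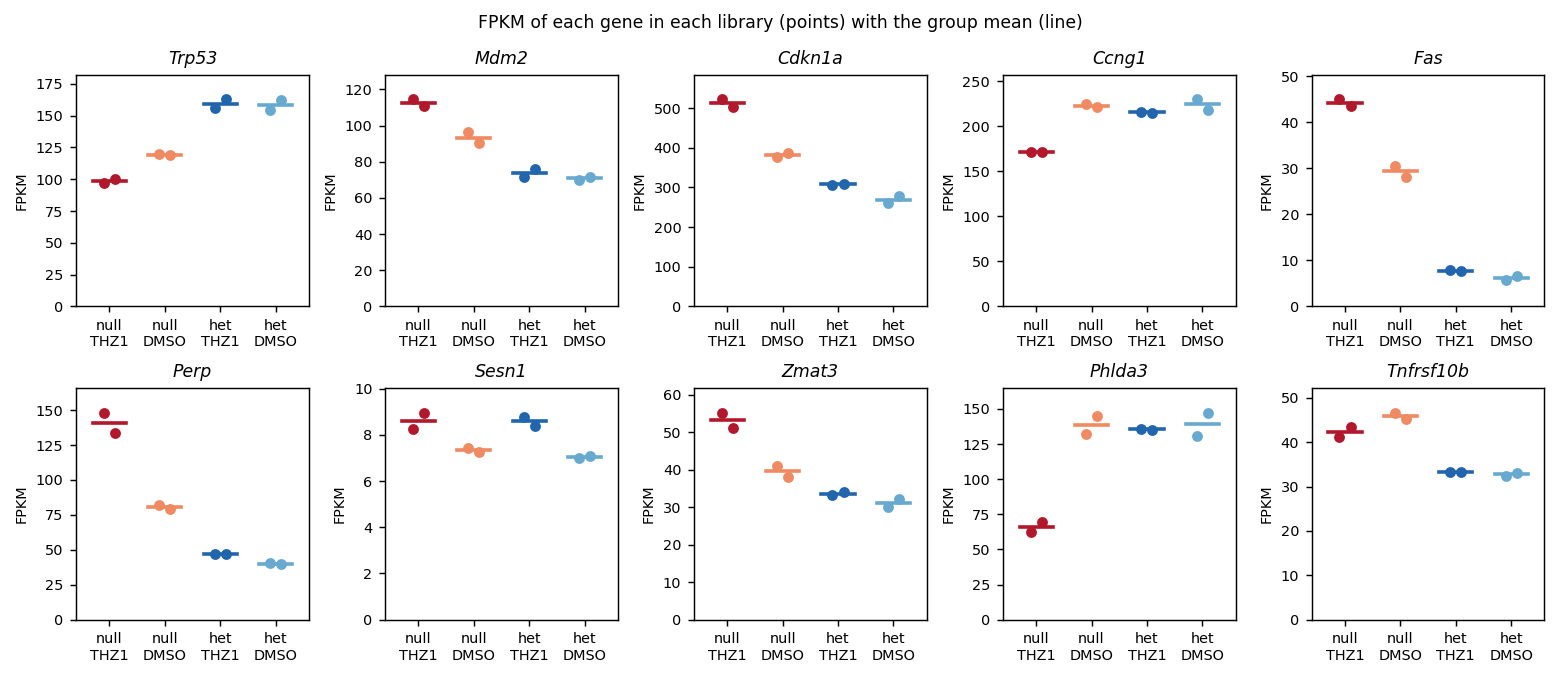
FPKM of each of the 10 genes in every library, with 1 panel per gene, points for single libraries and bars for group means (n = 2). Fas sits at 43.44 to 44.97 FPKM in null THZ1 and at 5.70 to 6.53 FPKM in heterozygous DMSO libraries, and Phlda3 is low in the null THZ1 libraries, at 62.54 and 69.63 FPKM.

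Under DMSO, 6 of the 10 genes were higher in null than in heterozygous cells, 1 was lower and 3 were not called. The higher genes were Fas, Perp, Cdkn1a, Tnfrsf10b, Mdm2 and Zmat3, and the lower one was Trp53 itself. Calls rest on limma-trend across all tested genes, at a Benjamini-Hochberg adjusted p below 0.05. Of all 10731 tested genes, 70.0% were called in this comparison, 29.0% as higher and 41.0% as lower. The median log2 difference was 0.36 over the 10 genes and -0.073 over all tested genes.

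Trp53 (chr11:69580348-69591873, with all gene positions from RefSeq on mm10) had 119.57 and 118.75 FPKM in null DMSO libraries, against 154.12 and 162.66 FPKM in heterozygous DMSO libraries. Both null values were below both heterozygous values. The log2 difference was -0.41 ± 0.04 (SE, limma adjusted p = 2.33e-06), a mean in null cells of 0.752 times that in heterozygous cells. Mdm2 (chr10:117688875-117710758) had 96.39 and 90.24 FPKM in null DMSO libraries, against 70.00 and 71.59 FPKM in heterozygous DMSO libraries. Here both null values were above the heterozygous ones, opposite to Trp53, with a log2 difference of 0.39 ± 0.05 (limma adjusted p = 7.24e-06). Mdm4, the partner that binds p53 with Mdm2, was lower in null cells, at 16.98 and 17.48 FPKM against 21.62 and 20.01 FPKM in heterozygous cells, with a log2 difference of -0.26 ± 0.06 (limma adjusted p = 0.00108).

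Among the genes of growth arrest and stress, Cdkn1a (chr17:29090979-29100722) had 377.74 and 385.72 FPKM in null DMSO libraries, against 259.89 and 277.86 FPKM in heterozygous DMSO libraries. The groups did not overlap, and the log2 difference was 0.50 ± 0.04 (limma adjusted p = 3.49e-07). Zmat3 (chr3:32334792-32365665), a zinc finger RNA-binding protein with a part in tumour suppression by p53, had 40.95 and 38.14 FPKM in null libraries, against 30.14 and 32.04 FPKM in heterozygous libraries. Its log2 difference was 0.34 ± 0.05 (limma adjusted p = 0.000109). It overlaps the long non-coding RNA 4930429B21Rik, whose strand was not established here, over 177 bases. Reads there cannot be told apart from those of Zmat3 if strand was not used or if both genes lie on the same strand. Ccng1 (chr11:40748552-40755309) had 224.19 and 221.16 FPKM in null libraries, against 229.65 and 218.33 FPKM in heterozygous libraries. The Ccng1 values overlapped, and the 95% interval of the log2 difference ran from -0.093 to 0.077. Sesn1 (chr10:41810574-41908436), which encodes sestrin 1, a stress protein that restrains mTORC1, had 7.43 and 7.25 FPKM in null libraries, against 7.0 and 7.09 FPKM in heterozygous libraries. Its values did not overlap but were not called, with an interval from -0.095 to 0.198.

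The genes tied to cell death held the steepest differences between the lines. Fas (chr19:34290647-34327775), which encodes the death receptor CD95, had 30.57 and 28.07 FPKM in null DMSO libraries, against 5.70 and 6.53 FPKM in heterozygous DMSO libraries. The mean in null cells was 4.795 times that in heterozygous cells, and the log2 difference was 2.09 ± 0.07 (limma adjusted p = 4.84e-11). Fas was at percentile 83.89 of all listed genes in null cells and at percentile 55.3 in heterozygous cells. Perp (chr10:18845071-18857073), a membrane protein of desmosomes and an effector of p53-dependent death, had 82.28 and 79.17 FPKM in null libraries, against 40.34 and 39.93 FPKM in heterozygous libraries. Its mean in null cells was 2.011 times that in heterozygous cells, with a log2 difference of 0.99 ± 0.05 (limma adjusted p = 2.50e-09). Tnfrsf10b (chr14:69767472-69784411), the mouse receptor for the death ligand TRAIL, had 46.67 and 45.30 FPKM in null libraries, against 32.45 and 33.02 FPKM in heterozygous libraries. Both death receptors were thus higher in every null library, Tnfrsf10b by 0.48 ± 0.05 on the log2 scale (limma adjusted p = 1.02e-06). Phlda3 (chr1:135766085-135769134), a PH-domain protein that inhibits AKT, had 131.83 and 144.89 FPKM in null libraries, against 130.95 and 147.33 FPKM in heterozygous libraries. These values overlapped, and the interval of the log2 difference ran from -0.147 to 0.133. In all, 8 of the 10 genes did not overlap between the lines, where 84.5% of all tested genes did not.

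In null cells, THZ1 moved all 10 genes past the threshold, 6 up and 4 down. Perp, Fas, Zmat3, Cdkn1a, Mdm2 and Sesn1 were higher than under DMSO, and Phlda3, Ccng1, Trp53 and Tnfrsf10b were lower. Of all tested genes, 75.7% were called in this comparison, 24.6% as higher and 51.1% as lower. The values of all 10 genes were separate between THZ1 and DMSO libraries, as were those of 87.4% of all tested genes. The median log2 difference was 0.24 over the 10 genes and -0.173 over all tested genes. Rescaling the libraries by the median of ratios put the median of all tested genes at 0.044, so directions of small changes in this comparison depend on the scaling. All tested genes split into 2645 higher and 5479 lower calls with the deposited values, and into 4484 higher and 3840 lower calls after that rescaling. FPKM is relative to the fragments of its own library, so a change in the amount of RNA per cell cannot be seen in them.

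Trp53 had 96.64 and 99.89 FPKM in null THZ1 libraries, against 119.57 and 118.75 FPKM in null DMSO libraries. The log2 difference was -0.28 ± 0.04 (limma adjusted p = 6.37e-05), or -0.10 relative to the median of all tested genes, and with the median of ratios it was -0.030 and not called (limma adjusted p = 0.564). Mdm2 had 114.49 and 110.93 FPKM under THZ1, against 96.39 and 90.24 FPKM under DMSO. It was higher in both THZ1 libraries, by 0.27 ± 0.05 on the log2 scale (limma adjusted p = 0.000161), or 0.44 relative to the median. Mdm4 differed by -0.15 ± 0.06 (limma adjusted p = 0.0286), or 0.026 relative to the median.

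Cdkn1a had 522.15 and 502.85 FPKM in null THZ1 libraries, against 377.74 and 385.72 FPKM in null DMSO libraries, a log2 difference of 0.42 ± 0.04 (limma adjusted p = 1.48e-06). Zmat3 had 55.16 and 51.00 FPKM under THZ1, against 40.95 and 38.14 FPKM under DMSO, a log2 difference of 0.42 ± 0.05 (limma adjusted p = 1.44e-05). The means of Cdkn1a and Zmat3 under THZ1 were 1.343 and 1.342 times those under DMSO. Ccng1 went the other way, with 171.30 and 171.31 FPKM under THZ1, against 224.19 and 221.16 FPKM under DMSO. Its log2 difference was -0.38 ± 0.04 (limma adjusted p = 1.77e-06), and with the median of ratios it was -0.13 and still called (limma adjusted p = 0.0165). Cdkn1a and Ccng1, the pair of genes with an adjacent p53 site in the windows shown above, therefore moved in opposite directions. Sesn1 had 8.26 and 8.96 FPKM under THZ1, against 7.43 and 7.25 FPKM under DMSO, a log2 difference of 0.20 ± 0.07 (limma adjusted p = 0.0150). The Sesn1 call was lost without null DMSO replicate 2 (adjusted p = 0.0746), without null THZ1 replicate 2 (adjusted p = 0.0984) and with library totals (adjusted p = 0.131).

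Perp had 148.19 and 133.57 FPKM in null THZ1 libraries, against 82.28 and 79.17 FPKM in null DMSO libraries. Of the 10 genes it rose most on the log2 scale, by 0.79 ± 0.05 (limma adjusted p = 2.06e-08), with a mean of 1.745 times that under DMSO. Fas had 44.97 and 43.44 FPKM under THZ1, against 30.57 and 28.07 FPKM under DMSO. Its log2 difference was 0.58 ± 0.07 (limma adjusted p = 4.74e-06). Phlda3 had 62.54 and 69.63 FPKM under THZ1, against 131.83 and 144.89 FPKM under DMSO. It fell to 0.478 times its DMSO mean, a log2 difference of -1.06 ± 0.06 (limma adjusted p = 1.65e-08), and stayed lower with the median of ratios, at -0.81. Tnfrsf10b had 41.12 and 43.55 FPKM under THZ1, against 46.67 and 45.30 FPKM under DMSO. Its log2 difference was -0.12 ± 0.05 (limma adjusted p = 0.0336), its direction turned to 0.13 with the median of ratios (limma adjusted p = 0.0198), and its call was lost with the upper quartile (adjusted p = 0.626). Without null DMSO replicate 1 its adjusted p was 0.157, without null THZ1 replicate 1 it was 0.219, and without either heterozygous THZ1 library, which enter only through the shared spread, it was 0.0523.

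**Figure D2:**
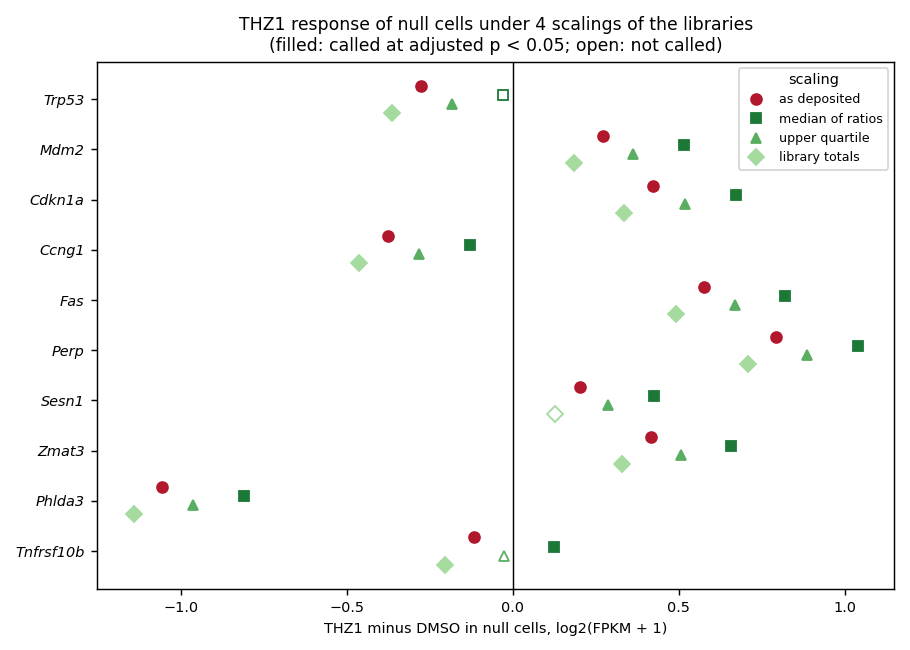
Log2 difference of THZ1 minus DMSO in null cells for the 10 genes under the deposited values and 3 other scalings of the libraries. Trp53 reaches -0.28 with the deposited values and -0.030 with the median of ratios, and Tnfrsf10b crosses 0, while Perp, Fas, Cdkn1a, Zmat3, Mdm2 and Sesn1 stay above 0 and Phlda3 and Ccng1 below it under all 4 scalings.

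In heterozygous cells the changes under THZ1 were small: Fas, Sesn1, Perp and Cdkn1a were higher than under DMSO, none of the 10 genes was lower, and 6 were not called. Of all tested genes, 22.4% were called here, 12.2% as higher and 10.3% as lower. No gene of the 10 was lower at an unadjusted limma p below 0.05 either. The median log2 difference was 0.084 over the 10 genes and 0.0095 over all tested genes. The values of 7 of the 10 genes were separate between THZ1 and DMSO libraries, against 65.0% of all tested genes.

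Fas had 7.84 and 7.73 FPKM in heterozygous THZ1 libraries, against 5.70 and 6.53 FPKM in heterozygous DMSO libraries, a log2 difference of 0.31 ± 0.07 (limma adjusted p = 0.00764). Perp had 46.81 and 46.78 FPKM under THZ1, against 40.34 and 39.93 FPKM under DMSO, a log2 difference of 0.22 ± 0.05 (limma adjusted p = 0.00997). Cdkn1a had 307.35 and 309.60 FPKM under THZ1, against 259.89 and 277.86 FPKM under DMSO, a log2 difference of 0.20 ± 0.04 (limma adjusted p = 0.00764). Both THZ1 libraries were above both DMSO libraries for all 3 of these genes, and Cdkn1a encodes p21, the arrest protein through which p53 acts on cyclin-dependent kinases. Sesn1 had 8.79 and 8.40 FPKM under THZ1, against 7.0 and 7.09 FPKM under DMSO, a log2 difference of 0.25 ± 0.07 (limma adjusted p = 0.0193). The Perp call was lost with no filter on low values (adjusted p = 0.0531) and the Sesn1 call with library totals (adjusted p = 0.0540). All 4 calls also depended on single libraries: 1 was left without heterozygous DMSO replicate 1 (Perp), 0 without heterozygous THZ1 replicate 1 and 1 without heterozygous THZ1 replicate 2 (Fas). The adjusted p of Cdkn1a without those libraries was 0.0616, 0.0527 and 0.0550, and that of Sesn1 was 0.0812, 0.143 and 0.0667, all by limma.

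Trp53 had 155.68 and 162.79 FPKM in heterozygous THZ1 libraries, against 154.12 and 162.66 FPKM in heterozygous DMSO libraries, with a log2 difference of 0.0078 ± 0.04 (limma adjusted p = 0.914). Mdm2 had 71.57 and 76.02 FPKM under THZ1, against 70.00 and 71.59 FPKM under DMSO (log2 difference 0.06 ± 0.05, limma adjusted p = 0.385). Neither the gene of p53 nor that of its ligase was called in this line, and both overlapped between groups. Zmat3 had 33.27 and 33.90 FPKM under THZ1, against 30.14 and 32.04 FPKM under DMSO, and was not called (limma adjusted p = 0.167). Ccng1, Phlda3 and Tnfrsf10b had log2 differences of -0.06, -0.036 and 0.02, with THZ1 means of 215 ± 0.955, 135 ± 0.552 and 33.3 ± 0.0495 FPKM against DMSO means of 224 ± 8.0, 139 ± 11.6 and 32.7 ± 0.403 FPKM (SD, n = 2 each).

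The difference between the 2 responses to THZ1, null minus heterozygous, was itself tested as an interaction. Perp, Zmat3, Fas, Cdkn1a and Mdm2 had a higher response in null cells, and Phlda3, Ccng1 and Trp53 had a lower one. Of all tested genes, 60.2% were called in the interaction, 15.1% as higher and 45.1% as lower. The median difference in response was 0.081 over the 10 genes and -0.187 over all tested genes, again a value that moved with the scaling, to 0.03 with the median of ratios. The interaction calls of all tested genes were 1620 higher and 4843 lower with the deposited values, and 3536 higher and 3065 lower with the median of ratios.

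Phlda3 differed most, by -1.02 ± 0.09 (limma adjusted p = 2.05e-06): its mean under THZ1 was 0.478 times the DMSO mean in null cells and 0.974 times in heterozygous cells. Perp differed by 0.58 ± 0.07 (limma adjusted p = 2.23e-05), with means under THZ1 of 1.745 times DMSO in null cells and 1.166 times in heterozygous cells. Zmat3 differed by 0.31 ± 0.08 (limma adjusted p = 0.00416) and Cdkn1a by 0.23 ± 0.06 (limma adjusted p = 0.00668). These are an AKT inhibitor, a desmosomal death effector, an RNA-binding protein and p21, so members of both the arrest and the death groups were among them. Mdm2 differed by 0.21 ± 0.07 (limma adjusted p = 0.0143), a call lost without heterozygous THZ1 replicate 1 (adjusted p = 0.0756), null DMSO replicate 2 (adjusted p = 0.0650) or null THZ1 replicate 1 (adjusted p = 0.0526). Fas differed by 0.27 ± 0.09 (limma adjusted p = 0.0254). The Fas call was lost with a pseudocount of 0.1 (adjusted p = 0.0555), with no filter on low values (adjusted p = 0.0713) and without heterozygous DMSO replicate 2 (adjusted p = 0.0925), heterozygous THZ1 replicate 2 (adjusted p = 0.0644), null DMSO replicate 2 (adjusted p = 0.112) or null THZ1 replicate 1 (adjusted p = 0.0775). Trp53 differed by -0.28 ± 0.06 (limma adjusted p = 0.00143) and Ccng1 by -0.32 ± 0.06 (limma adjusted p = 0.000323). With the median of ratios neither was called, at -0.04 for Trp53 (adjusted p = 0.614) and -0.076 for Ccng1 (adjusted p = 0.302). Sesn1, which rose in both lines, was not called, and the 95% interval of its difference ran from -0.26 to 0.16. Tnfrsf10b was not called either (interval -0.28 to 0.0011), but was called with library totals (adjusted p = 0.0367) and without null THZ1 replicate 2 (adjusted p = 0.0420).

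**Figure D3:**
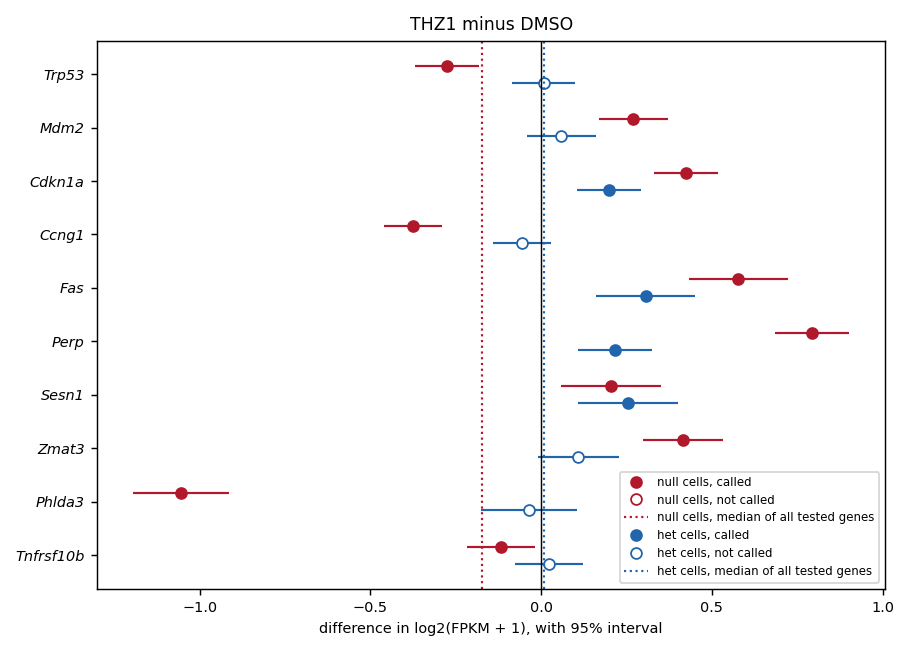
Log2 difference of THZ1 minus DMSO for the 10 genes, in null and in heterozygous cells, with 95% intervals from limma. In null cells Perp lies at 0.79 and Phlda3 at -1.06, while in heterozygous cells the differences run from -0.06 for Ccng1 to 0.31 for Fas.

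Under THZ1 the lines differed in 9 of the 10 genes. Fas, Perp, Cdkn1a, Zmat3, Mdm2 and Tnfrsf10b were higher in null than in heterozygous cells, Phlda3, Trp53 and Ccng1 were lower, and Sesn1 was not called. Of all tested genes, 83.2% were called, 25.1% as higher and 58.1% as lower. The median log2 difference was 0.47 over the 10 genes and -0.282 over all tested genes, or -0.007 with the median of ratios. The called genes then split into 4323 higher and 4428 lower, against 2689 higher and 6240 lower with the deposited values. This comparison shares its THZ1 libraries with the responses above, so its values are given beside theirs and not as separate support.

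Fas had 44.97 and 43.44 FPKM in null THZ1 libraries, against 7.84 and 7.73 FPKM in heterozygous THZ1 libraries, a mean ratio of 5.678 and a log2 difference of 2.36 ± 0.07 (limma adjusted p = 9.01e-12). Perp had a mean ratio of 3.011 and a log2 difference of 1.57 ± 0.05 (limma adjusted p = 2.24e-11). Cdkn1a had a mean ratio of 1.661, Zmat3 of 1.58, Mdm2 of 1.527 and Tnfrsf10b of 1.273. Each of these 6 genes, which encode death receptors, p21, an RNA-binding protein, a desmosomal protein and the p53 ligase, was higher in both null libraries than in both heterozygous libraries. Trp53 had a mean ratio of 0.617 (log2 difference -0.69 ± 0.04, limma adjusted p = 6.78e-09). Phlda3 had a mean ratio of 0.488 (log2 difference -1.03 ± 0.06, limma adjusted p = 7.92e-09). Relative to the median of all tested genes, Trp53 stood at -0.41 and Phlda3 at -0.74. Ccng1 had a log2 difference of -0.33 ± 0.04 (limma adjusted p = 4.02e-06), but of -0.021 with the median of ratios, where it was not called (adjusted p = 0.664). Sesn1 had 8.26 and 8.96 FPKM in null THZ1 libraries, against 8.79 and 8.40 FPKM in heterozygous THZ1 libraries. Its values overlapped with the deposited scaling, and it was called as higher with the median of ratios, at 0.28 (adjusted p = 0.00119), and with the upper quartile, at 0.16 (adjusted p = 0.0381). The values of 9 of the 10 genes were separate between the lines, against 92.0% of all tested genes.

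**Figure D4:**
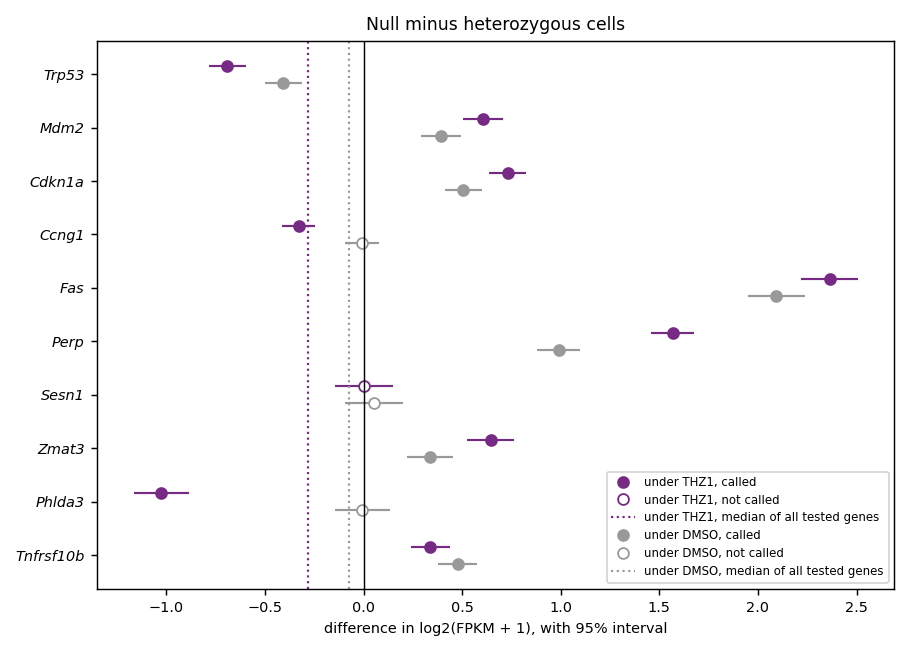
Log2 difference of null minus heterozygous cells for the 10 genes, under THZ1 and under DMSO, with 95% intervals from limma. Fas lies at 2.36 under THZ1 and 2.09 under DMSO, Trp53 is below 0 under both, and Phlda3 is at -1.03 under THZ1 and near 0 under DMSO.

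A list of 36 other p53 targets was measured beside the 10 genes, of which 34 passed the filter on low values. Under DMSO, 17 of the 34 were higher in null than in heterozygous cells (50.0%, against 29.0% of all tested genes), 7 were lower (20.6%, against 41.0%) and 10 were not called. Under THZ1, 13 were higher in null cells (38.2%, against 25.1% of all tested genes), 14 lower (41.2%, against 58.1%) and 7 not called, but with the median of ratios 19 were higher and 9 lower. In null cells THZ1 raised 10 (29.4%, against 24.6% of all tested genes), lowered 18 (52.9%, against 51.1%) and left 6 uncalled, and with the median of ratios it raised 15 and lowered 9. These shares in null cells were close to those of all tested genes, which moved with the scaling in the same way. In heterozygous cells THZ1 raised 7 (20.6%, against 12.2%), lowered 6 (17.6%, against 10.3%) and left 21 uncalled. Under DMSO the higher genes outnumbered the lower ones under all 4 scalings.

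Of the other cell death targets, Pmaip1, the BH3-only protein Noxa, had a mean of 88.7 FPKM in null DMSO cells against 25.82 FPKM in heterozygous DMSO cells, a log2 difference of 1.74 ± 0.05 (limma adjusted p = 1.82e-11). Bbc3, the BH3-only protein Puma, had 23.53 FPKM in null THZ1 cells against 14.83 FPKM in null DMSO cells, a log2 difference of 0.63 ± 0.09 (limma adjusted p = 3.12e-05). Bax, the pore-forming effector of the mitochondrial pathway, differed by -0.14 ± 0.05 under THZ1 in null cells (limma adjusted p = 0.0310), or 0.036 relative to the median of all tested genes. In the same comparison Aen, an apoptosis-enhancing nuclease, fell by 1.02 on the log2 scale and Pidd1, a death domain protein of the PIDDosome, fell by 1.18. Of these 12 death genes, 4 rose and 6 fell under THZ1 in null cells with the deposited values, where 24.6% of all tested genes rose and 51.1% fell. With the median of ratios 6 of the 12 rose and 2 fell, against 4484 higher and 3840 lower among all 10731 tested genes.

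Of 14 other growth arrest and stress targets, 8 were higher and 2 lower in null cells under DMSO, against 29.0% higher and 41.0% lower among all tested genes. Sfn, which encodes the cell cycle inhibitor 14-3-3 sigma, had 16.2 FPKM in null cells against 3.33 FPKM in heterozygous cells. The log2 difference of Sfn was 2.0 ± 0.09 (limma adjusted p = 6.70e-10). Under THZ1 in null cells, 4 of the 14 rose and 9 fell, against 24.6% higher and 51.1% lower among all tested genes. With the median of ratios 5 of the 14 rose and 4 fell, against 4484 higher and 3840 lower among all 10731 tested genes. Btg2, an antiproliferative gene, had 12.2 FPKM in null THZ1 cells against 58.0 FPKM in null DMSO cells, a log2 difference of -2.16 ± 0.05 (limma adjusted p = 1.68e-11). In heterozygous cells Btg2 had 37.5 FPKM under THZ1 against 49.1 FPKM under DMSO, a log2 difference of -0.38 ± 0.05 (limma adjusted p = 0.000406). Gadd45a, a growth arrest and repair protein, had 33.2 FPKM in null THZ1 cells against 23.2 FPKM in null DMSO cells, a log2 difference of 0.50 ± 0.06 (limma adjusted p = 6.22e-06). Of 8 targets in DNA repair and nucleotide supply, 2 were higher and 2 lower in null cells under DMSO, against 29.0% and 41.0% of all tested genes. These called targets included Mgmt, a repair enzyme for alkylated guanine (log2 difference 2.05 ± 0.14, limma adjusted p = 4.60e-08), and Pcna, the sliding clamp of DNA polymerase (-0.86 ± 0.04, limma adjusted p = 1.48e-09). Under THZ1 in null cells, Rrm2b, a ribonucleotide reductase subunit, fell by 1.05 on the log2 scale (limma adjusted p = 2.23e-07).

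**Figure D5:**
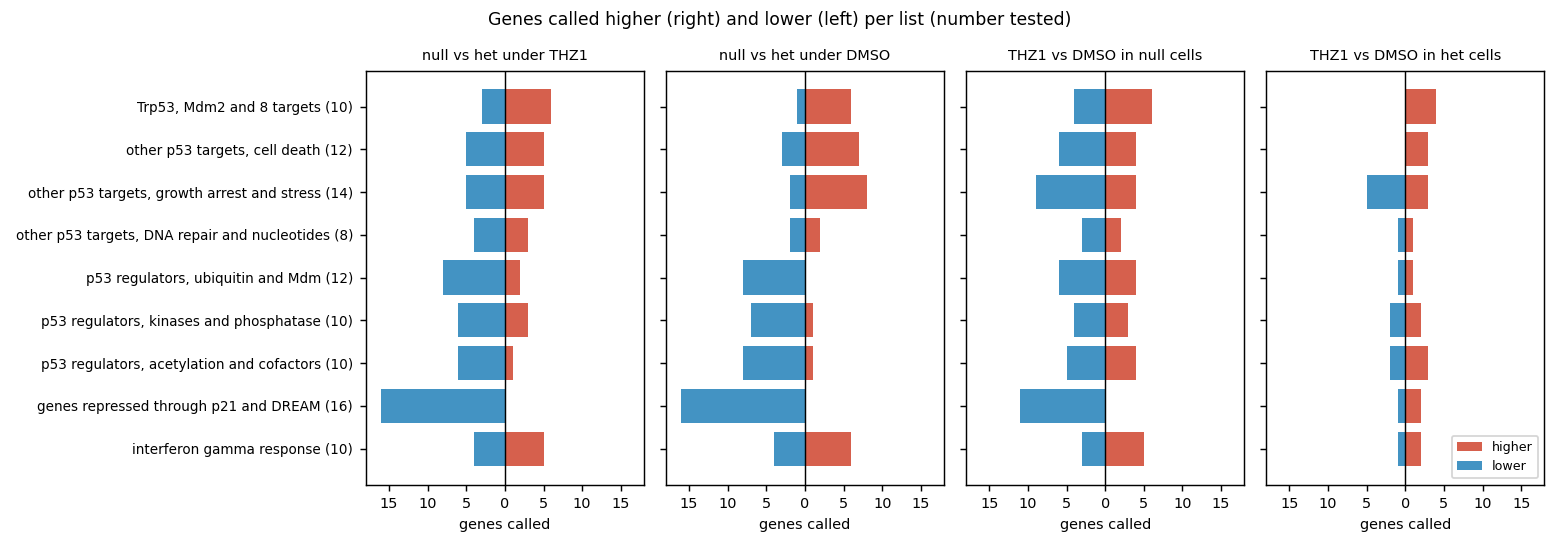
Number of genes called higher (bars to the right) and called lower (bars to the left) in each gene list, for null against heterozygous cells under THZ1 and under DMSO and for THZ1 against DMSO in null and in heterozygous cells. All 16 genes of the p21 and DREAM list are lower in null cells under both THZ1 and DMSO, and 8 of the 14 other growth arrest targets are higher in null cells under DMSO. Among all tested genes, 58.1% were lower in null cells under THZ1, and 41.0% were lower and 29.0% higher under DMSO.

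Most of the regulators that act on p53 were lower in null cells under DMSO. Among all tested genes, 41.0% were lower and 29.0% higher. Of 12 genes of ubiquitin control and Mdm binding, 0 were higher and 8 lower at the limma adjusted threshold. The counts were the same at an unadjusted p below 0.05. Their median log2 difference was -0.26, against -0.073 over all tested genes. With the median of ratios or the upper quartile, 0 of these genes were higher and 7 lower. Cdkn2a, whose ARF product binds and blocks Mdm2, had 60.9 FPKM in null DMSO cells against 103.1 FPKM in heterozygous DMSO cells, a log2 difference of -0.75 ± 0.05 (limma adjusted p = 1.33e-08). With 1 FPKM value per gene, the ARF transcript was not measured separately. THZ1 raised Cdkn2a in both lines, to 94.5 FPKM in null cells (log2 difference 0.63 ± 0.05, limma adjusted p = 6.78e-08) and to 121.8 FPKM in heterozygous cells (0.24 ± 0.05, limma adjusted p = 0.00386). Usp7, a deubiquitinase of p53 and Mdm2, was lower in null cells by 0.66 on the log2 scale under DMSO (limma adjusted p = 3.64e-08). Of 10 kinases and phosphatases that act on p53, 1 was higher and 7 lower in null cells under DMSO. Chek1, a checkpoint kinase, differed by -1.13 ± 0.07 (limma adjusted p = 1.64e-08) and Ppm1d, the phosphatase Wip1, by -0.68 ± 0.06 (limma adjusted p = 4.35e-07). Under THZ1 in null cells, Hipk2, a kinase that phosphorylates p53, had 19.4 FPKM against 6.43 FPKM under DMSO, a log2 difference of 1.47 ± 0.11 (limma adjusted p = 1.25e-07). Of 10 acetylation genes and cofactors, 1 was higher and 8 lower in null cells under DMSO, or 1 and 6 with each of the other 3 scalings. Kat5 and Kat8, acetyltransferases that modify p53, had 7.18 and 2.11 FPKM in null THZ1 cells against 26.2 and 9.13 FPKM in null DMSO cells. The log2 differences were -1.74 ± 0.08 for Kat5 and -1.71 ± 0.09 for Kat8 (limma adjusted p = 1.20e-09 and 5.34e-09). The p53 relatives Trp63 and Trp73 did not pass the filter on low values and were listed at 0 to 0.17 and 0 to 0.03 FPKM.

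Sustained p21 lets the DREAM complex of p130 and E2F4 shut off many cell cycle genes, and 16 such genes were measured. All 16 were lower in null than in heterozygous cells under DMSO, under all 4 scalings, with a median log2 difference of -0.99. All 16 were also lower under THZ1, with a median of -1.37. The shares of all tested genes called lower in null cells were 41.0% under DMSO and 58.1% under THZ1. Aurkb, the mitotic kinase aurora B, had 17.8 FPKM in null DMSO cells against 52.6 FPKM in heterozygous DMSO cells. Cdkn1a had 382 ± 5.64 against 269 ± 12.7 FPKM in the same groups (SD, n = 2 each). Whether p21 or DREAM has a part in the levels of the 16 genes was not tested. With 1 line per genotype it cannot be told apart from other differences between the lines. In null cells THZ1 lowered 11 of the 16 and raised 0 at the limma adjusted threshold (12 and 0 at an unadjusted p below 0.05). Among all tested genes 51.1% were lowered and 24.6% raised. With the median of ratios THZ1 lowered 8 of the 16 and raised 4, against 3840 lowered and 4484 raised among all 10731 tested genes. Ccna2, which encodes cyclin A2, had 36.5 FPKM in null THZ1 cells against 69.3 FPKM in null DMSO cells (log2 difference -0.90 ± 0.04, limma adjusted p = 1.55e-09). In heterozygous cells THZ1 raised 2 of the 16 and lowered 1, against 12.2% raised and 10.3% lowered among all tested genes. The 1 lowered gene was Ccna2, at 114.1 FPKM under THZ1 against 125.5 FPKM under DMSO.

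Among the genes whose pattern over the 8 libraries was most like that of Trp53, by Pearson's r of log2(FPKM + 1) among 7686 genes with a mean of at least 3 on that scale, were Fkbp4 (r = 0.9984) and Hmox1 (r = 0.9983). Those most like Mdm2 were Ola1 (r = 0.9978), Ppp3ca (r = 0.9953) and Ccnl1 (r = 0.9952). Those most like Cdkn1a were Saraf (r = 0.998), Atp5a1 (r = 0.9978) and Ifnar2 (r = 0.9973). The 8 libraries share line and drug in pairs, so these values describe a pattern over 4 groups and carry no test.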

How the data were processed

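The 8 libraries were made by a company from RNA selected with oligo dT, per the labels' protocols. The deposited files hold 1 FPKM value per gene as the authors computed it, with 2 decimals, for 18631 Entrez gene IDs. Per the submitters' processing notes, Bowtie2, DESeq2 and mm10 were used, with no versions given. How fragments were counted, and with which annotation and strand setting, is not given in the sources used here. Symbols and coordinates came from a RefSeq table of GRCm38.p6, which named 18592 IDs. Groups and replicate numbers came from the labels.

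FPKM values are not counts. Genes with a mean of at least 1 FPKM were kept (10731) and taken as log2(FPKM + 1), which understates the change of low genes. limma 3.58.1 in R 4.3.3 (limma-trend) took all 8 libraries into 1 fit of 4 group means, which left 4 residual degrees of freedom, and 5 comparisons were drawn from it. p-values are two-sided, adjusted by Benjamini-Hochberg over all tested genes and called below 0.05. Errors of log2 differences are standard errors, intervals are 95%, and ratios of means are on the FPKM scale. The fit was tested on simulated data.

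The 10 genes and the 9 lists beside them were chosen with earlier results of these data known. From each other list, up to 3 genes called in each direction with the smallest adjusted p in a comparison were named, besides Mdm4, Trp63, Trp73, Cdkn2a, Bax, Bbc3 and Pmaip1. A few genes that this rule or the measure of likeness selects are not reported here. Alternatives were 3 scalings of the libraries (median of ratios, upper quartile, library totals), a pseudocount of 0.1, no filter, a filter at 5 FPKM, fits on the groups compared alone, a block for the replicate number and leaving out each library. Leaving out null DMSO replicate 1 and null THZ1 replicate 2 together was added after seeing the data. Their low values are described in the report.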

Additional observations from a re-analysis of the deposited data

Results flagged for a closer look

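The response to THZ1 differed between the lines, by the interaction term of limma-trend over all tested genes, for 8 of the 10 genes. Of all tested genes, 60.2% were called in the interaction, 15.1% as higher and 45.1% as lower. Values are null minus heterozygous on the log2(FPKM + 1) scale. The response was higher in null cells for Perp (0.578), Zmat3 (0.307), Fas (0.271), Cdkn1a (0.226) and Mdm2 (0.212). It was lower in null cells for Phlda3 (-1.019), Ccng1 (-0.321) and Trp53 (-0.284). With the median of ratios the differences of Trp53 and Ccng1 were not called, while that of Phlda3 was called under every alternative run. The Fas call was lost with a pseudocount of 0.1 (limma adjusted p = 0.0555) and with no filter on low values (limma adjusted p = 0.0713). With single libraries left out, Fas ran from 0.186 to 0.355 and Mdm2 from 0.165 to 0.259, and neither kept its call in all of these fits.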

How the results depend on the processing

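Of 840 values recomputed for the 10 genes over 5 comparisons, 776 kept their direction and side of the threshold, 35 lost the call, 4 gained one and 25 changed sign, mostly values near 0. Between the lines under DMSO, Ccng1 moved to 0.055 with the median of ratios, 0.057 with the upper quartile and 0.033 with library totals, and between -0.044 and 0.028 with single libraries left out. Phlda3 moved to 0.056, 0.058 and 0.034 with the same scalings, between -0.092 and 0.077 with single libraries left out, and to 0.060 without null DMSO replicate 1 and null THZ1 replicate 2 together. For THZ1 in heterozygous cells, Trp53 moved to -0.014 with the upper quartile and -0.039 with library totals, and between -0.031 and 0.046 with single libraries left out, Tnfrsf10b moved to -0.023 with library totals, and Phlda3 ran from -0.12 to 0.049 with single libraries left out. For THZ1 in null cells, Tnfrsf10b turned to 0.13 with the median of ratios. In the interaction, Sesn1 turned to 0.17 with the median of ratios and 0.055 with the upper quartile and ran from -0.10 to 0.0023 with single libraries left out, and Tnfrsf10b turned to 0.10 with the median of ratios. Between the lines under THZ1, Sesn1 ran from -0.051 to 0.054 with single libraries left out and was -0.051 without both libraries named above.

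Genes called for THZ1 in heterozygous cells numbered 1309 with no filter and 797 to 2534 with single libraries left out, against 2406. The genes among the 10 called higher there ran from 0 to 4. With the median of ratios, the genes among the 10 called lower were 2 for THZ1 in null cells and 1 in the interaction, since that scaling shifts all genes upward there. Without null DMSO replicate 1 and null THZ1 replicate 2 together, 5 of the 10 genes were higher and 3 lower for THZ1 in null cells, and the other counts among the 10 were as reported. The interaction had 3 to 5 of the 10 called higher with single libraries left out. The cause of other changes was not tested.

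Deviations from the group means of libraries that share a replicate number correlated between -0.094 and 0.139, and replicate numbers were not treated as pairs. Whether libraries with the same number shared a culture or batch is not stated in the labels, and weak correlations cannot exclude it. With a replicate block 7502, 2387, 8112, 6461 and 8920 genes were called, for the lines under DMSO, THZ1 in heterozygous cells, THZ1 in null cells, the interaction and the lines under THZ1, and no call among the 10 genes changed. The 2 libraries per group limit the precision of every value.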

Other observations

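The medium of both lines contained interferon gamma, and 10 genes of the interferon gamma response were measured. Under DMSO, 6 were higher and 4 lower in null than in heterozygous cells, against 29.0% higher and 41.0% lower among all tested genes. Gbp2, a guanylate-binding protein, had 9.46 FPKM in null cells against 3.52 FPKM in heterozygous cells (log2 difference 1.21 ± 0.08, limma adjusted p = 2.48e-08). Irf1, a transcription factor of the response, had 14.8 FPKM in null cells against 21.9 FPKM in heterozygous cells (-0.54 ± 0.06, limma adjusted p = 1.98e-06). Under THZ1 in null cells 5 of the 10 rose and 3 fell, against 24.6% higher and 51.1% lower among all tested genes. With the median of ratios 6 of the 10 rose and 1 fell, against 4484 higher and 3840 lower among all 10731 tested genes. H2-K1, a class I histocompatibility gene, had 887.4 FPKM in null THZ1 cells against 626.6 FPKM in null DMSO cells (0.50 ± 0.04, limma adjusted p = 3.17e-07). In heterozygous cells THZ1 raised 2 of the 10 and lowered 1, against 12.2% raised and 10.3% lowered among all tested genes.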
